A study of Mus musculus with 12 samples.

Results

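Of 22180 measured liver genes, 287 changed on a high-fat diet in the mean of Ahnak-deficient and wild-type mice with an estimate of the same sign in each genotype. These genes passed the test on the mean of the 2 diet changes (HFD minus chow in KO and in WT, limma, Benjamini-Hochberg adjusted p under 0.05 over all genes) and had the same sign in each genotype. Of them, 158 were higher and 129 were lower on the high-fat diet. On their own, 236 of the 287 passed in WT and 21 in KO, and in 67 the smaller of the 2 changes was under 0.1. When diet was fitted with genotype only as a covariate, 51 genes passed, all among the 287. The groups were KO mice on a high-fat diet (HFD, 60% of it fat) and WT mice on the same diet, and each was set against its own genotype on regular chow. All were male C57BL/6 mice in weight-matched groups, fed for 8 weeks, with 3 mice per group and 1 liver per array. KO mice lacked Ahnak, which encodes a very large scaffold protein under the cell membrane, in the whole animal as far as the labels say, and the deleted part of the gene and the age of the mice are not given there.

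A diet in which most energy is fat loads the liver with fatty acids while carbohydrate is scarce. Hepatocytes store the surplus as triglyceride in lipid droplets, and in mice the first weeks bring a fatty liver, insulin resistance and a low-grade inflammatory response. The liver also clears drugs and steroids with cytochrome P450 enzymes and carboxylesterases, breaks down amino acids, activates thyroid hormone and secretes most plasma proteins.

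Every array carried a log2 signal for each gene, and array medians lay between 5.58 and 5.70. The 3 WT HFD livers stood apart from the other 9 arrays on the first principal component (32.2% of the variance), at 30.0 to 32.3 against -18.5 to -3.95. Hepatocyte genes were high throughout, with Alb at 14.05 to 14.16. Ahnak read 6.46, 6.52 and 6.62 in KO HFD livers against 6.38, 6.74 and 6.66 in KO chow livers, and 7.26, 7.06 and 6.74 in WT HFD livers against 6.50, 6.83 and 6.58 in WT chow livers, from 1 probe set whose position relative to the deletion is unknown. Its mean diet change was 0.16 ± 0.10 (SE, adjusted p = 0.518).

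KO and WT shared few of their diet responses across the whole gene set. In the mean of both genotypes 380 genes were called, 210 higher (0.947% of those tested) and 170 lower (0.766%), and 75.5% of them had 1 sign in both genotypes. That share is fixed in part by the selection, since a mean far from 0 favours equal signs, and the members made up 1.29% of all genes. Selecting on 1 genotype and reading the other gives a share free of this. Of 54 genes called in KO (19 higher and 35 lower, 0.243% of those tested), 22 or 40.7% had the same sign in WT. Of 1543 genes called in WT (891 higher and 652 lower, 6.96%), 628 or 40.7% had the same sign in KO. Over all genes the share was 47.1%. The KO and WT changes correlated with r = -0.14 across the 22180 genes, which are not independent replicates, and the comparisons share no array. The difference between the 2 diet changes was itself called for 783 genes (3.53%).

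**Figure D1:**
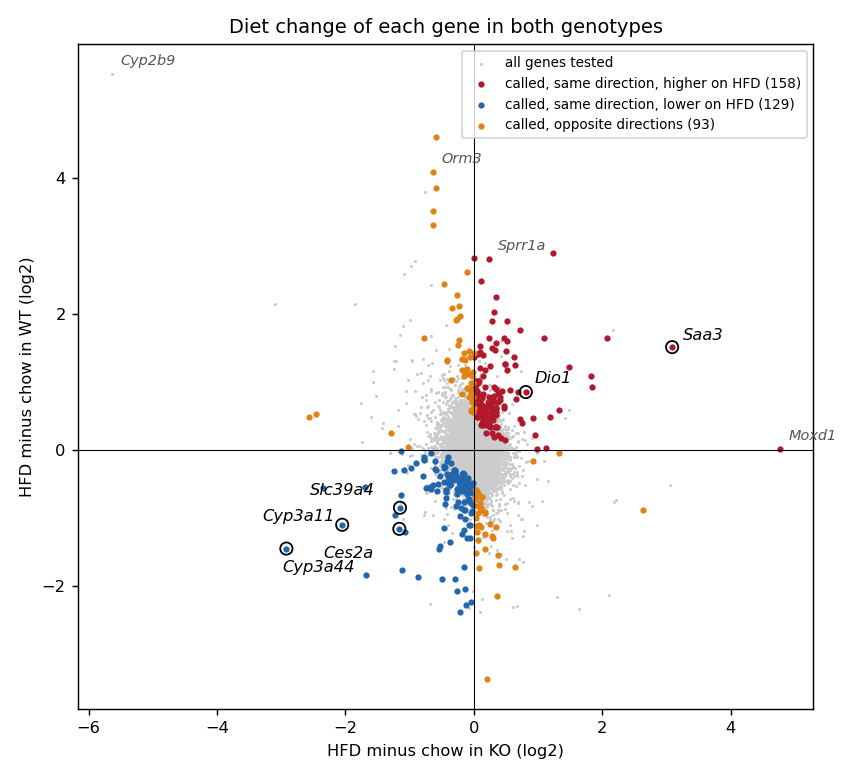
Each point is 1 gene, with the log2 change HFD minus chow in KO mice on the horizontal axis and in WT mice on the vertical axis (3 mice per group). The 158 red and 129 blue genes passed in the mean of both genotypes with 1 direction, the 93 orange genes passed with opposite directions, and circles mark the 6 genes called in each genotype on its own.

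Only 6 genes passed in KO and in WT separately in the same direction (0.0271% of those tested), against 16 that passed in both in opposite directions. They were Saa3 and Dio1, both higher on HFD, and Cyp3a44, Cyp3a11, Ces2a and Slc39a4, all lower. In each of the 6 every HFD array lay beyond every chow array, a separation that 142 of all genes (0.64%) and 63 of the 287 members showed. The promoters that RefSeq gives for 5 of them, from 250 bases before the transcription start to 50 after it, are shown because these genes carry the response that both genotypes had. The Cyp3a pair comes first, and its capitals mark the 4 runs of at least 10 bases found in both promoters, the longest of 21 bases, which cover 59 of 300 bases in each. Cyp3a11 lies at chr5:145879805-145880104, minus strand, and Cyp3a44 at chr5:145805825-145806124, minus strand, in build GRCm38.p6.
Cyp3a11: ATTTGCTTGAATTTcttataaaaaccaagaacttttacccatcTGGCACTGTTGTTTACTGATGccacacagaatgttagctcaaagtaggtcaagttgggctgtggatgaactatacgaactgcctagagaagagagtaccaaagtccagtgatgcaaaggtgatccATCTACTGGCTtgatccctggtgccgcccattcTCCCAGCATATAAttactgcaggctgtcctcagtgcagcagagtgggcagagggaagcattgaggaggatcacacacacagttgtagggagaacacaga
Cyp3a44: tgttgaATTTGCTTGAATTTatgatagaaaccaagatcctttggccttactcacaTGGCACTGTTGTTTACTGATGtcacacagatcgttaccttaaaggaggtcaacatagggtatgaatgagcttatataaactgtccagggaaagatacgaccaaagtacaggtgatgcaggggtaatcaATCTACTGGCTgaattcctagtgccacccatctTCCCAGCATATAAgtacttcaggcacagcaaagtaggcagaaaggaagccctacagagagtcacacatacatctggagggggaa

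The other 3 promoters belong to Ces2a (chr8:104733753-104734052, plus strand), Dio1 (chr4:107307119-107307418, minus strand) and Saa3 (chr7:46715627-46715926, minus strand) in the same build. Capitals mark the CCAAT box on either strand, found in Ces2a at -231 and -58 from the start site, and the core TCACNCCAC, the letters of a sterol regulatory element, found in Saa3 at -67 on the opposite strand.
Ces2a: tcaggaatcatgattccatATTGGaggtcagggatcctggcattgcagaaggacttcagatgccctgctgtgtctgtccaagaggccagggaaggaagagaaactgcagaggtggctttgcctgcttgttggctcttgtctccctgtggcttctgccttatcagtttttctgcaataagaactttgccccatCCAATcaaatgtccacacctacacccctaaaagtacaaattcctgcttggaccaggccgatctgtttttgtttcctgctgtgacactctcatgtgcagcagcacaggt
Dio1: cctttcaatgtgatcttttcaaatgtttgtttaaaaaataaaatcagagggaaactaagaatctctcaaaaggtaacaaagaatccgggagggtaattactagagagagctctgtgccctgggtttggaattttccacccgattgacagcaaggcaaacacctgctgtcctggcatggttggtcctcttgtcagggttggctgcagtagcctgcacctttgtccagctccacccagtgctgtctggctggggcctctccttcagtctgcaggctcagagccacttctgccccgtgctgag
Saa3: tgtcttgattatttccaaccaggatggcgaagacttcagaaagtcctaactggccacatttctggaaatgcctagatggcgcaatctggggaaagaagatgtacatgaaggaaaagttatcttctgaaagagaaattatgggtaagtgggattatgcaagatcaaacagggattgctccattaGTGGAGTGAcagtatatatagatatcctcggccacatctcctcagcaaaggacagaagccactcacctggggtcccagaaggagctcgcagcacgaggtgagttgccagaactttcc

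Both motifs were also counted in the promoters of the 287 genes that RefSeq lists, as a description. CCAAT was present in 43.4% of 129 promoters of higher genes and 40.7% of 91 promoters of lower genes, against 38.5% of the 16990 promoters of all genes with 1 listed. TCACNCCAC was present in 1.55% and 3.30% of them, against 1.22% of all. The E-box CACGTG, the D-box TTANGTAA and the nuclear receptor half-site AAAGGTCA were also searched on both strands, with E-boxes in 9.30% and 6.59% against 8.18%, D-boxes in 1.55% and 1.10% against 2.09%, and half-sites in 0.775% and 3.30% against 1.29%.

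Saa3, an acute-phase apolipoprotein made by liver and by inflamed fat and macrophages, rose 4.93-fold in the mean of both genotypes. Its log2 signals were 11.88, 10.45 and 10.8 in KO HFD livers against 8.00, 7.80 and 8.06 in KO chow livers, and 9.88, 9.53 and 9.07 in WT HFD livers against 8.29, 7.80 and 7.85 in WT chow livers. The mouse KO HFD 1 was the highest of all. The change was 3.09 ± 0.31 in KO (SE, limma adjusted p = 0.00104) and 1.51 ± 0.31 in WT (adjusted p = 0.0121), and the difference between genotypes had an adjusted p = 0.0744.

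Dio1, the deiodinase that converts thyroxine to active T3 in liver, rose by nearly the same amount in both genotypes. KO HFD livers read 11.44, 11.4 and 11.44 against 10.54, 10.7 and 10.6 in KO chow livers, and WT HFD livers 11.59, 11.57 and 11.69 against 10.63, 10.68 and 11.01 in WT chow livers. The highest chow array, WT chow 3 at 11.01, lay below every HFD array. The change was 0.81 ± 0.10 in KO and 0.85 ± 0.10 in WT (adjusted p = 0.0042 and 0.000587), and the genotypes differed with an adjusted p = 0.944.

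Cyp3a11, the main drug-metabolizing P450 of the CYP3A group in mouse liver and a target of the xenobiotic receptor PXR, fell to 0.336 of its chow level in the mean. KO HFD livers read 9.7, 9.41 and 9.45 against 11.63, 11.57 and 11.51 in KO chow livers, and WT HFD livers 10.1, 10.67 and 10.61 against 11.7, 11.6 and 11.37 in WT chow livers. Its neighbour Cyp3a44, a female-predominant member of the group, also fell. KO HFD livers read 4.39, 4.07 and 4.13 for it against 6.92, 6.87 and 7.57 in KO chow livers, and WT HFD livers 5.74, 5.71 and 5.52 against 7.4, 7.02 and 6.92 in WT chow livers. In KO HFD livers only 13% to 16.5% of all genes read lower than Cyp3a44, so no fold is given for it. Both genes fell more in KO than in WT. The changes of Cyp3a11 were -2.05 ± 0.15 in KO and -1.10 ± 0.15 in WT, with an adjusted p of 0.0284 for the difference, and those of Cyp3a44 were -2.92 ± 0.18 and -1.45 ± 0.18, with 0.0102. Genes of this family are near-identical copies, so the probes may share signal.

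Ces2a, a carboxylesterase that hydrolyses ester drugs and acylglycerols, fell to 0.447 of chow with equal changes of -1.16 ± 0.13 in both genotypes (adjusted p = 0.00235 in KO and 0.000384 in WT). KO HFD livers read 10.77, 10.57 and 10.58 against 11.73, 11.91 and 11.75 in KO chow livers, and WT HFD livers 10.65, 10.89 and 10.93 against 12.24, 11.71 and 12.01 in WT chow livers. The interaction had an adjusted p = 0.996. Slc39a4, which encodes the zinc importer ZIP4, fell to 0.5 of chow. KO HFD livers read 9.21, 9.75 and 9.07 against 10.43, 10.36 and 10.69 in KO chow livers, and WT HFD livers 9.28, 9.29 and 9.65 against 10.11, 10.46 and 10.19 in WT chow livers. Its change was -1.15 ± 0.18 in KO and -0.85 ± 0.18 in WT (adjusted p = 0.0178 and 0.0133).

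**Figure D2:**
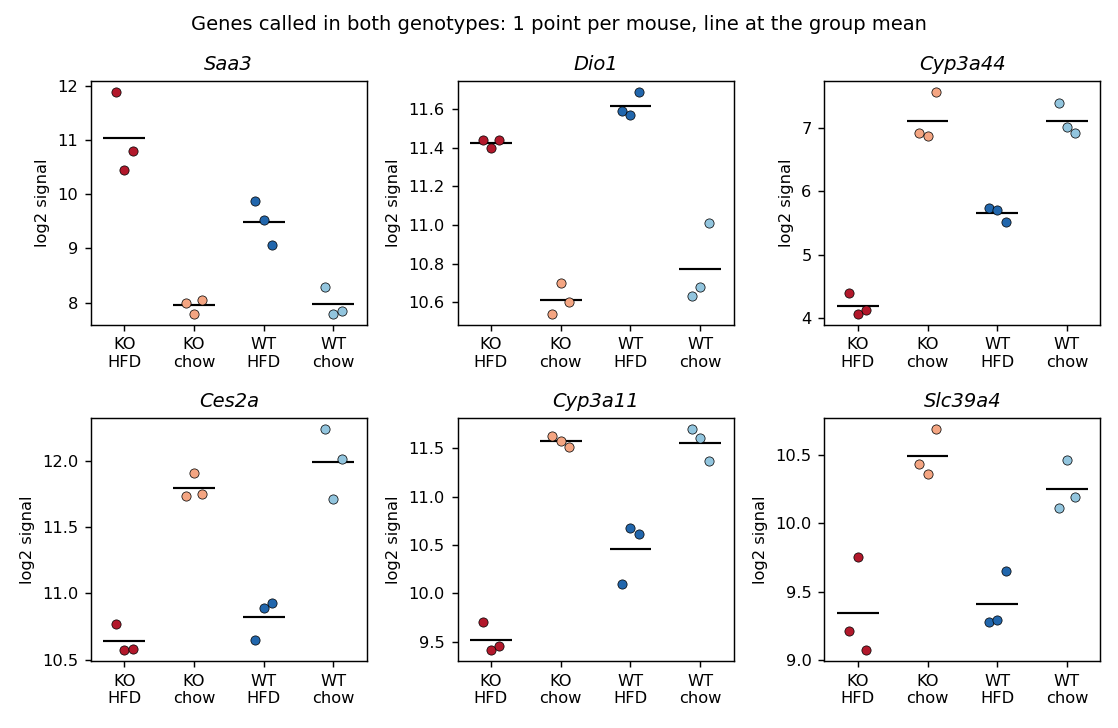
Log2 signal of the 6 genes called in each genotype on its own, with 1 point per mouse (3 per group) and a line at each group mean. For every gene the 6 HFD points lie wholly above or wholly below the 6 chow points, and the KO HFD mice lie farther from chow than the WT HFD mice for Saa3, Cyp3a44 and Cyp3a11.

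Ranking the members by the smaller of their KO and WT changes gave 24 genes, the 6 above and 18 that passed in the mean without passing in both genotypes. Of those 18, 12 also passed in WT alone, 1 in KO alone and 5 in neither. Of the 24, 7 passed in KO and 18 in WT, 14 had no overlap between the diets (63 of all 287 members and 0.64% of all genes), and 17 were still called without each of the 12 arrays in turn. When diet was fitted with genotype as a covariate, so that a difference between genotypes counts as noise, 51 genes passed in all (0.23% of those tested). All 51 were among the 287, and 18 of the 24 were among the 51. The 24 were ranked on these same arrays, which favours each of these counts.

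**Figure D3:**
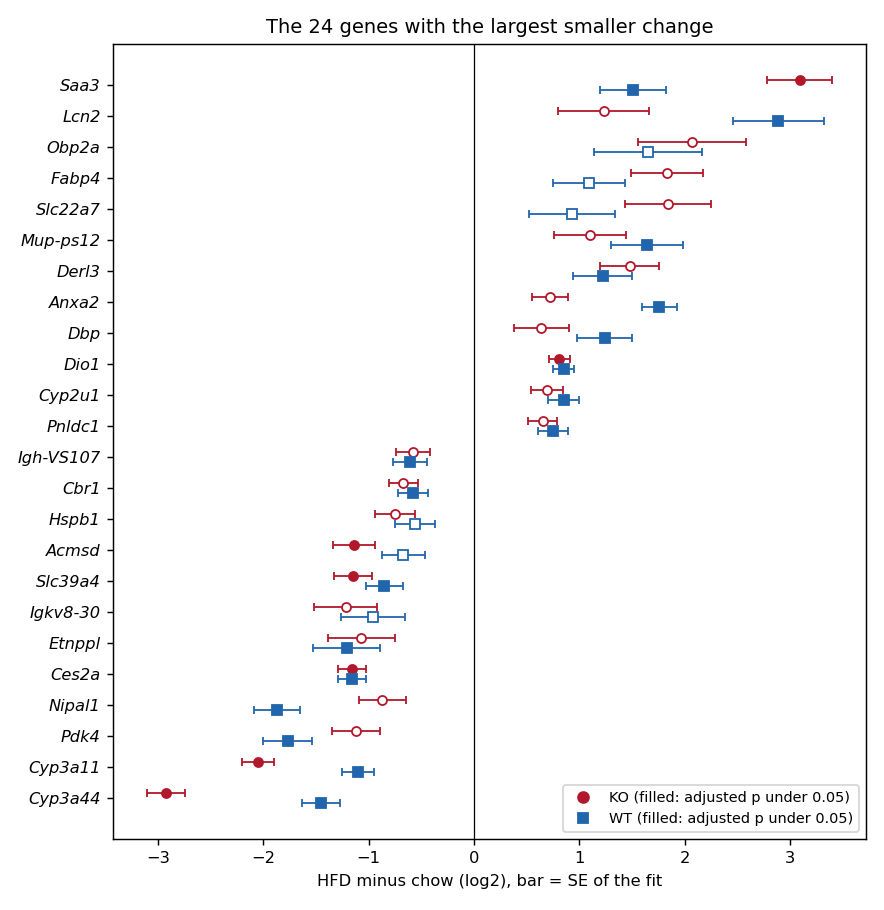
Log2 change HFD minus chow of the 24 named genes in KO (red circles) and WT (blue squares), with the SE of the fit as bars (3 mice per group). Filled symbols passed in that genotype alone, and the 6 genes with both filled include Dio1 and Ces2a, whose symbols lie over each other.

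Lipocalins and a fatty-acid carrier were among the genes that rose. Lcn2, the siderophore-binding lipocalin and an acute-phase product, read 10.6, 8.13 and 9.22 in KO HFD livers against 8.3, 7.92 and 8.04 in KO chow livers, and 10.43, 10.59 and 10.69 in WT HFD livers against 7.93, 7.38 and 7.72 in WT chow livers. KO HFD 2 lay below KO chow 1, and the change missed the threshold in KO (1.23 ± 0.43, adjusted p = 0.442) and passed in WT (2.89 ± 0.43, adjusted p = 0.00224). Obp2a, an odorant-binding lipocalin, had changes of 2.07 ± 0.51 in KO and 1.65 ± 0.51 in WT (mean 1.86 ± 0.36, adjusted p = 0.0237), and its 6 HFD arrays, 7.37 to 9.02, all lay above its chow arrays, 5.05 to 7.25. Mup-ps12, a pseudogene of the major urinary protein cluster whose probes may read its many close copies, rose 2.59-fold in the mean (1.37 ± 0.24, adjusted p = 0.0134).

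Fabp4, the fatty-acid-binding protein of adipocytes and macrophages, rose 2.75-fold in the mean. It read 11.34, 9.63 and 10.26 in KO HFD livers against 8.63, 8.69 and 8.42 in KO chow livers, and 9.58, 9.75 and 9.67 in WT HFD livers against 9.14, 8.41 and 8.19 in WT chow livers. All HFD arrays lay above all chow arrays and KO HFD 1 was the highest, as it was for Saa3. The mean change was 1.46 ± 0.24 (adjusted p = 0.0106), with 1.83 ± 0.34 in KO and 1.09 ± 0.34 in WT, neither past the threshold alone (0.0599 and 0.0813). Some other adipocyte genes were not called in the mean: Adipoq ranged from 4.59 to 5.04 over the 12 arrays (mean change 0.02, adjusted p = 0.963), Lep from 4.49 to 5.33 (0.11, adjusted p = 0.706) and Plin1 from 5.38 to 5.88 (0.01, adjusted p = 0.982). Retn, at 5.47 to 6.34 (0.24, adjusted p = 0.296), and Car3, at 12.09 to 14.05 (0.21, adjusted p = 0.715), were not called either.

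Of 11 measured adipocyte markers 2 were called higher, Fabp4 and Cidea, against 0.947% of all genes. The average log2 level of the 11 was 6.53 to 6.8 in KO HFD and 6.71 to 7.04 in WT HFD livers, against 6.42 to 6.46 in KO chow and 6.46 to 6.56 in WT chow livers. That average includes the 2 called genes, which raise it, so it does not show a rise of the markers as a group. The median change of the 11 was 0.00298 in KO and 0.106 in WT. The part of adipocytes in the rise of Fabp4 was not tested. In bulk tissue a change in the number of cells of a type and a change in RNA per cell cannot be told apart.

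Among 29 genes of lipid droplets and fatty acid uptake 5 were called higher and none lower in the mean, and 4 of the 5 had 1 sign in both genotypes. They were Fabp4, Mogat1, Fitm1 and Cidea. Over all genes 0.947% were called higher and 0.766% lower in the mean. By genotype, 1 gene of the list rose and 1 fell in KO, and 6 rose and 4 fell in WT. By sign alone, 8 of the list were up and 7 down in both genotypes. The median change of the list was 0.0212, against 0.00378 for all genes. Mogat1, which makes diacylglycerol from monoacylglycerol, changed by 0.47 ± 0.20 in KO and 1.64 ± 0.20 in WT, and the 2 changes differed (adjusted p = 0.0458). Fitm1, an endoplasmic reticulum protein that helps to form lipid droplets, changed by 0.48 ± 0.19 in KO and 1.26 ± 0.19 in WT. Cidea, which fuses lipid droplets, belongs to the members by its sign alone: its KO change was 0.00 ± 0.40 and its WT change 2.82 ± 0.40.

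Some genes of fatty acid oxidation were members, against 1.29% of all genes. Of 20 genes of mitochondrial oxidation and ketogenesis the 1 call was Pdk4, and the list's median change was 0.0656 in KO and -0.164 in WT. Pdk4, the kinase that shuts off pyruvate oxidation in fasting and a PPAR alpha target, read 9.82, 9.19 and 10.09 in KO HFD livers against 10.43, 10.73 and 11.3 in KO chow livers, and 9.24, 9.06 and 9 in WT HFD livers against 10.97, 10.7 and 10.94 in WT chow livers. It fell to 0.368 of chow in the mean (-1.44 ± 0.16, adjusted p = 0.000992) with no overlap between the diets. KO alone missed the threshold (-1.12 ± 0.23, adjusted p = 0.0916) and WT alone passed it (-1.77 ± 0.23, adjusted p = 0.000943). Of 26 peroxisomal and PPAR alpha target genes 6 fell in the mean and none rose, but 4 of these, Ehhadh and 3 Cyp4a genes, had the opposite sign in KO, and the list's median change was 0.057 in KO and -0.223 in WT. The remaining pair was Acot1 and Acot2, thioesterases that split acyl-CoA and are close copies of each other, with changes of -0.49 ± 0.18 and -0.06 ± 0.19 in KO against -1.90 ± 0.18 and -1.29 ± 0.19 in WT. Both differences between genotypes passed (adjusted p = 0.0126 and 0.0265).

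Some other lipid genes were members, against 1.29% of all genes. Apom, which carries sphingosine-1-phosphate on lipoproteins, fell by 0.41 ± 0.07 in the mean (adjusted p = 0.0131), and Tm6sf2, needed to load lipid onto secreted VLDL, fell by 0.46 ± 0.10 (adjusted p = 0.0475). They were the 2 called genes among 22 apolipoprotein and lipoprotein genes. Of 19 cholesterol genes Tm7sf2, a sterol reductase, fell with 1 sign in both genotypes (mean -0.63 ± 0.12, adjusted p = 0.0199) and Hsd17b7 fell in the mean with opposite signs. Etnppl, an enzyme that degrades phosphoethanolamine, changed by -1.07 ± 0.32 in KO and -1.21 ± 0.32 in WT (mean -1.14 ± 0.22, adjusted p = 0.0249). Among glucose genes (23 measured) the 1 call was Pklr, liver pyruvate kinase, which changed by 0.15 ± 0.14 in KO and rose by 1.08 ± 0.14 in WT, a difference with an adjusted p = 0.0264.

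Further enzymes that handle drugs and other foreign compounds were members. By name, and picked after their values were seen, 7 cytochrome P450 genes of 98 measured were members, 6 of them lower, and so were 3 of 19 carboxylesterases, all lower, and 3 of 19 glutathione transferases, all lower. These are 7.14%, 15.8% and 15.8% of each family, against 1.29% of all genes, and most of each family was not called. Some changed more in KO. Cyp3a59 changed by -2.35 ± 0.25 in KO and -0.56 ± 0.25 in WT, Ces1b by -1.25 ± 0.15 and -0.31 ± 0.15, and Gsta4 by -1.13 ± 0.15 and -0.01 ± 0.15, each difference past the threshold (adjusted p = 0.0186, 0.0361 and 0.0154). Ces1d (-0.77 ± 0.10 in KO and -0.14 ± 0.10 in WT), Cyp2c69 (-1.08 ± 0.19 and -0.30 ± 0.19) and Cyp2j8 (-0.98 ± 0.16 and -0.27 ± 0.16) followed the same order. Gsto1 changed by -0.40 ± 0.11 in each genotype (mean adjusted p = 0.0188). Cbr1, a carbonyl reductase, changed by -0.67 ± 0.14 in KO and -0.58 ± 0.14 in WT with no overlap between the diets (mean -0.62 ± 0.10, adjusted p = 0.00818).

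The list of 26 targets of the drug receptors CAR, PXR and AhR held 1 higher and 5 lower genes in the mean, and of these only Cyp3a11 and Ces2a had 1 sign in both. Read by genotype, 0 rose and 6 fell in KO, while 5 rose and 3 fell in WT. Among all genes 0.947% were called higher and 0.766% lower in the mean, 0.243% in KO and 6.96% in WT. The median change of the list was -0.376 in KO and 0.0996 in WT, against 0.00374 and 0.00334 for all genes. Cyp2a5, for example, read 5.85, 5.65 and 5.88 in KO HFD livers against 8.15, 8.26 and 8.36 in KO chow livers, and 9.03, 8.86 and 9.02 in WT HFD livers against 8.27, 8.64 and 8.44 in WT chow livers. The single P450 member that rose was Cyp2u1, a fatty acid hydroxylase, with 0.69 ± 0.15 in KO and 0.85 ± 0.15 in WT (mean 0.77 ± 0.11, adjusted p = 0.00438).

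Transporters moved both ways. Of 376 solute carrier genes measured, of the cell surface and of inner membranes, 14 were members (3.72%, against 1.29% of all genes), 8 higher and 6 lower. This family too was picked after its values were seen. Slc22a7, the organic anion transporter OAT2, rose 2.61-fold in the mean (1.38 ± 0.29, adjusted p = 0.0315), with all HFD arrays, 8.05 to 9.58, above all chow arrays, 6.43 to 7.91. Slco1a4, an uptake carrier for bile acids and steroids, fell to 0.460 of chow (-1.12 ± 0.15, adjusted p = 0.00263), with -1.70 ± 0.21 in KO (adjusted p = 0.0037) and -0.54 ± 0.21 in WT (adjusted p = 0.154). Slco2a1, the prostaglandin transporter, changed by -0.53 ± 0.11 in KO (adjusted p = 0.089) and fell in WT (-1.41 ± 0.11), and its 6 HFD arrays lay below its 6 chow arrays. Slc22a5, the carnitine importer, belonged to the members with -0.03 ± 0.09 in KO and -0.80 ± 0.09 in WT. Nipal1, a magnesium transporter, fell to 0.386 of chow (-1.37 ± 0.15, adjusted p = 0.000931), with -0.87 ± 0.22 in KO and -1.87 ± 0.22 in WT. Aqp8, a water channel of the canalicular membrane, changed by 0.52 ± 0.13 in KO and 1.90 ± 0.13 in WT, and Scara5, a ferritin receptor, by 0.57 ± 0.13 and 0.88 ± 0.13 (mean adjusted p = 6.27e-05 and 0.00192).

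Of 26 genes of amino acid, one-carbon and urea metabolism 4 fell in the mean and none rose, all 4 with 1 sign, and 22 were not called. By genotype, limma called 0 in KO (7 at an unadjusted p under 0.05) and 5, all lower, in WT. Over all genes 0.766% were called lower in the mean, and 0.243% were called in KO and 6.96% in WT. By sign alone, 19 of the 26 had 1 sign in both genotypes (16 down, 3 up), while 10451 of all genes (47.1%) had 1 sign. The list's median change was -0.0848 in KO and -0.107 in WT. Asl, the argininosuccinate lyase of the urea cycle, read 12.53, 12.8 and 12.64 in KO HFD livers against 13.1, 13.14 and 13.05 in KO chow livers, and 12.1, 12.03 and 11.98 in WT HFD livers against 12.81, 12.54 and 12.53 in WT chow livers. The diets did not overlap within either genotype, and the mean change was -0.51 ± 0.07 (adjusted p = 0.00321). Cth, which makes cysteine and hydrogen sulfide, fell by 0.44 ± 0.08 in the mean (adjusted p = 0.0134), with -0.37 ± 0.11 in KO and -0.51 ± 0.11 in WT. Got1, cytosolic aspartate aminotransferase, and Csad, which makes taurine, changed by -0.21 ± 0.16 and -0.12 ± 0.16 in KO and fell in WT, at -0.97 ± 0.16 and -2.28 ± 0.16.

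A few members outside that list, singled out after their values were seen, act on tryptophan or histidine. Tdo2, which opens tryptophan breakdown and is on the list, changed by 0.02 ± 0.06 in the mean (adjusted p = 0.914). Acmsd, which diverts the kynurenine pathway from NAD synthesis, read 7.76, 7.46 and 7.54 in KO HFD livers against 8.74, 9.11 and 8.34 in KO chow livers, and 7.54, 7.2 and 7.3 in WT HFD livers against 8.44, 7.76 and 7.87 in WT chow livers. The highest HFD array, KO HFD 1, and the lowest chow array, WT chow 2, both read 7.76. Its change was -1.14 ± 0.20 in KO (adjusted p = 0.0462) and -0.67 ± 0.20 in WT (adjusted p = 0.0693). Afmid, which makes kynurenine, changed by -0.78 ± 0.13 in KO and -0.15 ± 0.13 in WT, and Kyat3, a kynurenine aminotransferase, by -0.66 ± 0.10 and -0.05 ± 0.10. Hal, the histidine ammonia-lyase, changed by -0.90 ± 0.17 and -0.19 ± 0.17 (mean -0.55 ± 0.12, adjusted p = 0.0411).

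Some genes of the endoplasmic reticulum were members. Derl3, which helps to remove misfolded proteins from the endoplasmic reticulum, rose 2.55-fold in the mean. It read 7.86, 8.03 and 7.41 in KO HFD livers against 6.13, 6.42 and 6.31 in KO chow livers, and 8.47, 8.47 and 8.79 in WT HFD livers against 6.55, 7.56 and 7.95 in WT chow livers. Within each genotype the diets did not overlap, and the change was 1.48 ± 0.28 in KO (adjusted p = 0.0633) and 1.22 ± 0.28 in WT (adjusted p = 0.0219). Of 24 targets of the unfolded protein response and its stress kinases 5 were higher in the mean and none lower, and 4 of these had 1 sign in both genotypes. By genotype, limma called 0 in KO (4 at an unadjusted p under 0.05), and 14 higher and 2 lower in WT. Over all genes 0.947% were called higher and 0.766% lower in the mean, 0.243% in KO and 6.96% in WT. The list's median change was 0.0406 in KO and 0.522 in WT. Chac1, which degrades glutathione, changed by 0.50 ± 0.17 in KO and 1.46 ± 0.17 in WT (mean 0.98 ± 0.12, adjusted p = 0.00172). Pdia6, a disulfide isomerase, changed by 0.31 ± 0.13 in KO and 0.79 ± 0.13 in WT, Sdf2l1 by 0.48 ± 0.27 and 1.26 ± 0.27, and the chaperone Dnajb11 by 0.09 ± 0.10 and 0.64 ± 0.10. None of these 4 passed in KO, and all 4 passed in WT.

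Of 22 acute-phase genes measured, 4 rose in the mean, and 3 had 1 sign, Saa3 and Lcn2 among them (1.29% of all genes were members). Saa4, a constitutive serum amyloid A, changed by 0.06 ± 0.15 in KO and 0.98 ± 0.15 in WT, and Orm3, an orosomucoid, had opposite signs, with -0.64 ± 0.37 in KO and 4.08 ± 0.37 in WT. C2, of 25 complement and coagulation genes the single member, changed by -0.38 ± 0.11 in KO and -0.39 ± 0.11 in WT, and its diets did not overlap (mean -0.38 ± 0.08, adjusted p = 0.0309). Lect2, a hepatokine, rose by 0.52 ± 0.11 in the mean (adjusted p = 0.0382).

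Some macrophage and matrix genes were members. Of 18 Kupffer cell and macrophage markers the 1 call, Mpeg1, had opposite signs (-0.05 ± 0.13 in KO and 0.99 ± 0.13 in WT). Of 15 lipid-associated macrophage markers 7 were higher in the mean, 5 of them with 1 sign. By genotype, 1 passed as higher in KO, and 9 as higher and 1 as lower in WT. Over all genes 0.947% were called higher in the mean and 1.29% were members, and 0.243% were called in KO and 6.96% in WT. Gpnmb changed by 0.28 ± 0.21 in KO and 1.90 ± 0.21 in WT, Trem2 by 0.08 ± 0.16 and 1.01 ± 0.16, and Lgals3 by 0.03 ± 0.09 and 0.55 ± 0.09, each difference past the threshold (adjusted p = 0.0135, 0.0442 and 0.0392). Cd63, a tetraspanin of lysosomes, changed by 0.33 ± 0.09 in KO and 0.60 ± 0.09 in WT, and its 6 HFD arrays lay above its 6 chow arrays (mean adjusted p = 0.00441). The average log2 level of the 15 markers was 7.59 to 7.71 in KO HFD and 8.13 to 8.36 in WT HFD livers, against 7.4 to 7.5 in KO chow and 7.44 to 7.68 in WT chow livers. It includes the 7 called markers, which raise it.

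Of 26 stellate cell and fibrosis genes 4 rose in the mean, against 0.947% of all genes. Of these, Col1a2 (0.02 ± 0.14 in KO and 0.91 ± 0.14 in WT) and Timp1 (0.07 ± 0.17 and 1.41 ± 0.17) had 1 sign. The average level of the 26, with the 4 called genes included, was 7.78 to 7.94 in KO HFD and 8.15 to 8.44 in WT HFD livers, against 7.80 to 7.98 in KO chow and 7.64 to 7.82 in WT chow livers. Anxa2, a calcium-dependent membrane protein that binds Ahnak, also belonged to the members. It read 7.10, 7.58 and 7.80 in KO HFD livers against 6.57, 6.8 and 6.96 in KO chow livers, and 8.68, 8.73 and 9.01 in WT HFD livers against 7.14, 7.15 and 6.86 in WT chow livers. The diets did not overlap within either genotype, and the change was 0.72 ± 0.17 in KO (adjusted p = 0.164) and 1.76 ± 0.17 in WT (adjusted p = 0.000118), a difference with an adjusted p = 0.0364. Of 24 cytokines and chemokines Ccl2 (0.17 ± 0.21 in KO and 1.18 ± 0.21 in WT) and Ccl3 (0.14 ± 0.20 and 1.39 ± 0.20) rose in the mean and Il1b (-0.21 ± 0.33 and -2.38 ± 0.33) fell. Over all genes 0.947% were called higher and 0.766% lower in the mean.

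A few antibody genes were members. Jchain, which joins the subunits of secreted IgA and IgM, read 5.23, 5.29 and 5.38 in KO HFD livers against 6.23, 6.06 and 5.52 in KO chow livers, and 5.08, 5.07 and 5.21 in WT HFD livers against 5.75, 5.67 and 5.49 in WT chow livers. All 6 HFD arrays lay below all 6 chow arrays, with changes of -0.64 ± 0.15 in KO and -0.52 ± 0.15 in WT (mean adjusted p = 0.018). The immunoglobulin segments Igh-VS107 (mean -0.60 ± 0.11, adjusted p = 0.0188) and Igkv8-30 (mean -1.09 ± 0.21, adjusted p = 0.0242) also fell. They were the 2 members among 18 variable segments measured (11.1%, against 1.29% of all genes), a family looked at after its values were seen. Genes of these gene families may share probe signal. Jchain was the single call among 8 B and plasma cell markers, of which 6 had 1 sign, all negative. The average level of the 8 was 6.19 to 6.36 in KO HFD and 6.28 to 6.31 in WT HFD livers, against 6.43 to 6.6 in KO chow and 6.39 to 6.73 in WT chow livers. No HFD array reached a chow array. Jchain, called on these same arrays, is part of that average and adds to the gap, and an average without it was not computed. The median change of the 8 was -0.158 in KO and -0.263 in WT.

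Hormone and clock genes added a few members. Socs2, which dampens growth hormone signalling, changed by -0.26 ± 0.22 in KO and -2.07 ± 0.22 in WT, and the insulin-like growth factor carriers Igfbp1 (-0.04 ± 0.30 and -2.23 ± 0.30) and Igfbp2 (-0.14 ± 0.12 and -2.05 ± 0.12) showed the same imbalance. These were the 3 called genes among 15 of growth hormone and IGF signalling (0.766% of all genes were called lower), and all 3 differed between genotypes. Dbp and Nr1d1, outputs and repressors of the circadian clock, were the 2 called genes among 18 clock genes (0.947% of all genes were called higher). Dbp changed by 0.64 ± 0.26 in KO and 1.24 ± 0.26 in WT (mean 0.94 ± 0.19, adjusted p = 0.0255), and Nr1d1 by 0.96 ± 0.18 in KO and 0.22 ± 0.18 in WT (mean 0.59 ± 0.13, adjusted p = 0.0368). Of 9 bone morphogenetic protein genes, looked at after their values were seen, 3 were members (33.3%, against 1.29% of all genes). Bmp6 (mean -0.59 ± 0.10, adjusted p = 0.014) and Bmp2 (mean -0.29 ± 0.06, adjusted p = 0.0349), which control hepcidin, fell and Bmp7 rose (mean 0.46 ± 0.09, adjusted p = 0.0299).

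**Figure D4:**
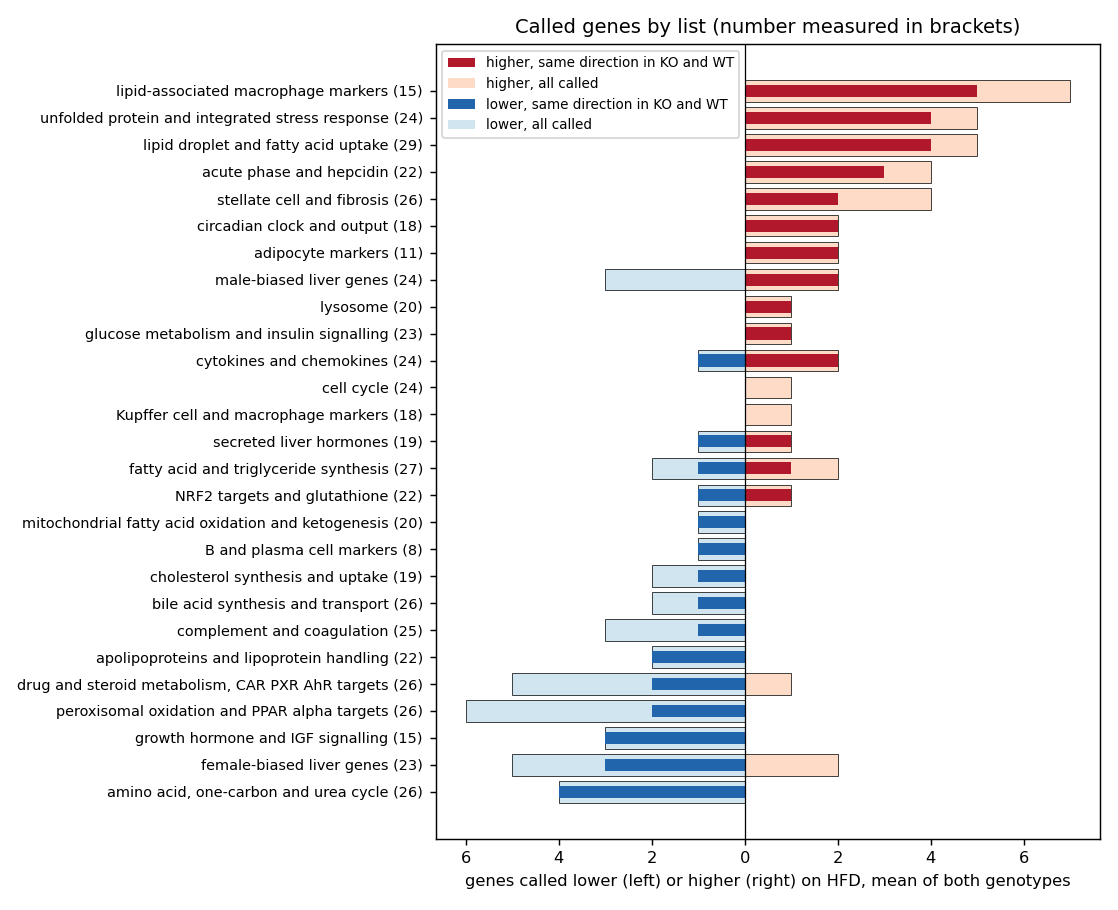
Number of genes called lower (left) or higher (right) on HFD in the mean of both genotypes, for the 27 lists with a call, with the number measured in brackets. Pale bars count all calls and dark bars those with 1 direction in KO and WT, such as 4 of 4 among amino acid genes and 2 of 6 among peroxisomal genes.

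Other members with a sizeable smaller change were varied. Pnldc1, an RNA exonuclease that trims piRNAs in the mouse testis, read 6.57 to 6.76 in KO HFD and 6.72 to 6.78 in WT HFD livers, against 5.95 to 6.03 in KO chow and 5.62 to 6.28 in WT chow livers, and rose by 0.70 ± 0.10 (adjusted p = 0.00329). Hspb1, a small heat shock protein, fell by 0.66 ± 0.13 (adjusted p = 0.0268). Outside the naming rule, Rarres1 (mean 0.96 ± 0.19, adjusted p = 0.0263) and Treh, the trehalase (mean 0.84 ± 0.15, adjusted p = 0.0174), rose with the larger change in KO, at 1.33 ± 0.27 and 1.19 ± 0.22 against 0.59 ± 0.27 and 0.49 ± 0.22 in WT. The unnamed transcript BC018473, left out by the naming rule, changed by -1.68 ± 0.46 in KO and -1.84 ± 0.46 in WT (mean adjusted p = 0.018). No other falling member had a larger smaller change.

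A common direction did not mean a common size. The median size of the change over the 287 members was 0.26 in KO and 0.63 in WT, the KO change was larger in 56 and the WT change in 231 (80.5%), and 67 had a smaller change under 0.1. The smaller change reached 0.5 of the larger in 82 members (28.6%), 39 higher and 43 lower. On their own, 21 members passed in KO, 236 in WT and 36 in neither. The difference between the genotypes passed for 91 members (31.7%), against 3.53% of all genes, on the same arrays that chose the members. The members lay at brighter signals, with a median of 8.16 against 6.17 for all genes, and 85.7% of them were above the overall median.

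The members with the smallest interaction p among rises and among falls, 5 of each, differed in size between the genotypes. Moxd1, a male-biased monooxygenase-like gene, read 8.69, 10.13 and 9.82 in KO HFD livers against 4.46, 4.96 and 4.90 in KO chow livers, and 4.89, 4.68 and 4.69 in WT HFD livers against 4.96, 4.55 and 4.69 in WT chow livers. The rise was 4.77 ± 0.29 in KO, with 0.01 ± 0.29 in WT. Sprr1a, a cornified-envelope protein gene (0.24 ± 0.12 in KO and 2.80 ± 0.12 in WT), Themis, a T cell signalling gene (0.11 ± 0.18 and 2.48 ± 0.18), Mmp12, the macrophage elastase (0.32 ± 0.13 and 2.02 ± 0.13), and Sema5b, a semaphorin (0.26 ± 0.09 and 1.23 ± 0.09), passed in WT and not in KO. The 5 falls were Igfbp2, Csad, Slc22a5, Slco2a1 and Wrnip1, a genome maintenance ATPase that changed by -0.07 ± 0.13 in KO and -1.11 ± 0.13 in WT. Of 23 measured female-biased genes 0 rose and 7 fell in KO, while 7 rose and 2 fell in WT (0.243% and 6.96% of all genes were called). The median change of the list was -0.587 in KO and 0.263 in WT. In the mean 2 were higher and 5 lower, and 3 of the lower genes, Cux2 among them, had 1 sign. Cux2, a transcription factor, fell in KO (-0.77 ± 0.09) with -0.11 ± 0.09 in WT.

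Of the 16 genes called in both genotypes in opposite directions, 3 were still called in the mean, among them Cyp2a5 (-2.46 ± 0.11 in KO and 0.52 ± 0.11 in WT, mean -0.97 ± 0.08, adjusted p = 6.76e-05). Cyp2b9, a female-biased P450, read 6.18, 4.39 and 3.98 in KO HFD livers against 7.87, 11.31 and 12.29 in KO chow livers, and 13.17, 13.3 and 13.4 in WT HFD livers against 7.69, 8.88 and 6.75 in WT chow livers, and its mean change was -0.06 ± 0.66. Hamp2, a hepcidin gene, changed by -3.10 ± 0.33 in KO and 2.15 ± 0.33 in WT, Ugt2b38, a glucuronosyltransferase, by 1.64 ± 0.28 and -2.34 ± 0.28, Serpinb1a, a protease inhibitor, by -1.24 ± 0.21 and 1.19 ± 0.21, and Dsg1c, a desmoglein, by -0.96 ± 0.12 and 1.32 ± 0.12.

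Many familiar genes of high-fat feeding were not called in the mean. Among lipogenic genes Fasn changed by -0.05 ± 0.10 (adjusted p = 0.893), Srebf1 by 0.26 ± 0.09 (adjusted p = 0.185), Srebf2 by -0.15 ± 0.10 (adjusted p = 0.522), Scd1 by -0.81 ± 0.24 (adjusted p = 0.125) and Sqle by -0.23 ± 0.27 (adjusted p = 0.775). Pparg changed by 0.66 ± 0.34 (adjusted p = 0.428), Ppara by 0.12 ± 0.06 (adjusted p = 0.429), Cpt1a by -0.12 ± 0.06 (adjusted p = 0.34) and Cidec by 0.46 ± 0.28 (adjusted p = 0.516). Cd36 (mean 0.51 ± 0.15, adjusted p = 0.114), Fgf21 (-0.59 ± 0.21, adjusted p = 0.211) and Lpin1 (0.86 ± 0.33, adjusted p = 0.237) passed in WT alone, with opposite signs in KO. Pck1 and G6pc, enzymes of glucose production, Cyp7a1, the first enzyme of the main bile acid pathway, Arntl of the clock, Tnf and Nnt also missed the threshold, with adjusted p of 0.277, 0.136, 0.695, 0.242, 0.47 and 0.973, which does not show that they did not change.

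At the threshold itself the last genes inside were Grn (mean -0.27, adjusted p = 0.0493), Rnf32 (0.35, 0.0494) and Ddhd2 (-0.41, 0.0494), and the first outside were Rgs1 (-0.74, 0.0501), Limk1 (0.25, 0.0501) and Ap1s2 (0.33, 0.0501).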

How the data were processed

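Liver RNA of 12 mice was measured, 1 mouse per array. The deposited values are log2 signals, made by the authors with oligo per the submitters' processing notes, with the version and method not given in the sources used here. They were used as deposited for 41345 probe sets, of which 23521 carried exactly 1 symbol in the probe annotation, 1814 several and 16010 none. Of the 23521, 23328 matched a RefSeq gene (GRCm38.p6) and took its symbol, and 193 kept the annotated symbol. A gene was its brightest probe set (22180 genes).

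The 4 group means were fitted with limma 3.58.1 in R 4.3.3, with Benjamini-Hochberg adjustment of each comparison over all genes. A fold is the antilog of a log2 change. Lists were described by counts and medians only. The members, the 37 gene lists, the tests and the naming rule were chosen with earlier results of these data known. The rule named 24 members with the largest smaller change, 5 rises and 5 falls with the smallest interaction p, 5 opposite genes, up to 4 genes per list, 3 genes on each side of the threshold and a set list; clones were left out, and 16 further genes were added after their values were seen. The code was tested on simulated data. Alternatives were another fit, block, prior, weights, scaling, filter, summary, features and threshold, and leaving arrays out.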

Additional observations from a re-analysis of the deposited data

Results flagged for a closer look

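The diet change differed between the genotypes (interaction, limma adjusted p under 0.05) for the genes below, each given as the change in KO minus the change in WT on the log2 scale. Only genes named in this report are listed, 51 of the 783 genes that passed. They include 36 of the 91 members that passed, so the counts below do not cover all members. The pattern of signs is described and no explanation was tested.

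Among genes with opposite directions the difference was -11.16 for Cyp2b9, -5.26 for Hamp2, -4.72 for Orm3, -2.98 for Cyp2a5, -2.42 for Serpinb1a, -2.28 for Dsg1c, -1.30 for Creld2, 1.15 for Hsd17b7 and 3.98 for Ugt2b38. The value for Cyp2b9 has an SE of 1.32, its KO chow arrays spread widely and some of its KO HFD arrays lay at low signals.

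Among the listed members that were higher on HFD the KO change exceeded the WT change for Moxd1, by 4.76. It lay below the WT change for the others, with -2.82 for Cidea, -2.56 for Sprr1a, -2.37 for Themis, -1.70 for Mmp12, -1.62 for Gpnmb, -1.38 for Aqp8, -1.34 for Timp1, -1.24 for Ccl3, -1.17 for Mogat1, -1.04 for Anxa2, -0.97 for Sema5b, -0.93 for Pklr, -0.93 for Trem2, -0.92 for Saa4, -0.90 for Col1a2 and -0.52 for Lgals3.

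Among the listed members that were lower on HFD the fall was deeper in KO for 8 genes, with -1.79 for Cyp3a59, -1.47 for Cyp3a44, -1.13 for Gsta4, -0.95 for Cyp3a11, -0.94 for Ces1b, -0.67 for Cux2, -0.63 for Ces1d and -0.60 for Kyat3. It was deeper in WT for the others, with 0.77 for Slc22a5, 0.81 for Ddhd2, 0.88 for Slco2a1, 1.04 for Wrnip1, 1.23 for Acot2, 1.41 for Acot1, 1.82 for Socs2, 1.92 for Igfbp2, 2.16 for Csad, 2.17 for Il1b and 2.20 for Igfbp1.

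Genes not called in the mean also differed, with -3.69 for Ciart, -3.68 for Lpin1, -2.34 for Cd36, -0.68 for Ap1s2, -0.52 for Limk1 and 1.96 for Fgf21.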

How the results depend on the processing

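The call rests on how the spread is estimated. With genotype as a covariate only 51 genes passed in the mean (25 higher, 26 lower), all 51 among the members. With trend and robust settings the mean comparison called 709, the shared direction 531, both genotypes 15, KO 124 and the interaction 1201. Among genes above the median signal these were 780, 588, 18, 124 and 1394, with fewer genes tested, and with every probe set 228 in the mean, 168 of 1 direction and 508 for the interaction. At 2-fold or more 45 genes were called in the mean, 36 of 1 direction, 28 in KO, 206 in WT and 275 for the interaction. Each genotype on its own arrays gave 21 in KO. Centred on the median, 70.4% of WT calls were higher (57.7% as deposited), 26.2% of interaction calls were positive (40.6%) and 39.5% of non-overlapping genes were higher (51.4%).

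Same-numbered arrays showed no common deviation (r from -0.06 to 0.08 over 18 pairs). What the replicate numbers mark is not given, and so few arrays per group cannot decide whether they pair mice. With the replicate block 297 genes were called in the mean, 225 of 1 direction (207 of them members), 6 in both, 40 in KO, 1290 in WT and 612 for the interaction.

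Leaving out 1 array gave 230 to 362 genes in the mean, 168 to 268 of 1 direction, 4 to 10 in both, 28 to 79 in KO, 815 to 1691 in WT, 432 to 718 for the interaction and 185 to 326 without overlap. Counts moved by over 1.5 times in these cases: in the mean to 250, 233 and 246 without WT HFD 1, 2 and 3 and to 230 without KO chow 1, and for 1 direction to 188, 173, 185 and 168 without the same arrays. Both genotypes had 10 without WT chow 1, KO had 28 and 35 without KO chow 2 and 3, and WT had 935, 860 and 867 without WT HFD 1, 2 and 3 and 815 without WT chow 3. The interaction had 489 without KO HFD 2, 443 and 481 without WT HFD 2 and 3, 432 and 434 without KO chow 2 and 3, and 444 without WT chow 3. With fewer arrays to separate, genes without overlap (142 with all arrays) numbered 326, 292 and 279 without KO HFD 1, 2 and 3, 220 and 217 without KO chow 2 and 3, and 226, 247 and 214 without WT chow 1, 2 and 3. Of the 287 members 134 were called without each array in turn. Of the 24 named members 7 were not, with the highest adjusted p at 0.0622 for Obp2a (without WT HFD 3), 0.0788 for Slc22a7 (KO chow 2), 0.0711 for Dbp (WT HFD 2), 0.067 for Etnppl (WT HFD 2), 0.0677 for Igkv8-30 (WT HFD 2), 0.0535 for Igh-VS107 (KO chow 1) and 0.0684 for Hspb1 (WT HFD 2).

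Without the 3 WT HFD arrays only the KO comparison remains, with 35 calls, and 16 of the 287 members were among them. There the sign turned for Ahnak (-0.06), Ap1s2 (-0.01), Cd36 (-0.66), Ciart (-0.92), Cpt1a (0.07), Creld2 (-0.11), Fgf21 (0.39), Hsd17b7 (0.03), Limk1 (-0.01), Lpin1 (-0.98), Nnt (-0.25), Orm3 (-0.64), Pck1 (0.01), Sqle (0.07), Srebf1 (-0.04) and Tnf (-0.01). No member could turn sign there, because members were chosen to have the same sign in KO and in WT. Leaving out 1 array moved Fasn between -0.12 and 0.00 (without WT chow 3) and Nnt between -0.13 and 0.17, and array weights turned Nnt to -0.03. The 3 arrays per group limit the precision.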
